A study of Homo sapiens with 12 samples.

Results

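SPT6-AID cells, a derivative of the human colorectal adenocarcinoma line DLD-1 in which SPT6 carries an auxin-inducible degron, were compared after 6 h and after 2 h of auxin. The members were chosen by labelled line and time alone: 2 libraries at 6 h and 2 at 2 h, 4 of the 12 poly(A) RNA-seq libraries of the series. Their genotype is SPT6-AID OsTIR1, and OsTIR1, the plant receptor that marks a degron-tagged protein for destruction once auxin is present, was expressed constitutively in every group. Auxin was given at 500 µM in both groups, so the comparison holds only what changed after the first 2 h. Further libraries are set beside it: the same line at 0 h of auxin (replicates 1 and 2), and PAF1-AID OsTIR1 cells at 2 h and 6 h of auxin (replicates 3 and 4). The labels do not say whether replicates were separate cultures or whether a line is a single clone, and the spread that a p-value is set against is that between libraries, possibly a technical one. Cells without a degron but with auxin were not analysed here, and protein was not measured.

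SPT6, encoded by SUPT6H, is a histone chaperone: it rides on elongating RNA polymerase II and puts nucleosomes back together behind it. It works with IWS1 and with the PAF1 complex, and its loss is known to slow elongation and disturb termination. Poly(A) RNA measured hours after the loss reflects both new transcription and how long each older transcript lasts.

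The 4 libraries held 31957953 (6 h replicate 2) to 115904780 (2 h replicate 2) counts. Fly counts made up 4.58% and 4.80% of the 2 h libraries and 5.36% and 6.25% of the 6 h libraries, and mitochondrial genes 2.56% and 2.68% against 3.85% and 3.92% of human counts. Values are CPM, human counts scaled to library size after TMM normalization. SUPT6H RNA, which the degron does not target, was at 520 and 509 CPM at 2 h and 549 and 557 CPM at 6 h (log2 fold change 0.10 ± 0.11 SE, edgeR adjusted p = 0.593), so it gives no check of depletion. Epithelial markers KRT8 (1732 to 2239 CPM), KRT18, EPCAM and CDH1 were abundant in all 4 libraries, while CDX1 was at 0 and VIL1, LGALS4, CEACAM5 and GPA33 stayed under 1 CPM. Of 8 fibroblast and endothelial markers 3 were at 0 in all 4 libraries, and their summed level was 1.97 to 3.22 CPM at 2 h and 3.38 to 3.54 at 6 h. The summed level of 7 blood markers was 7.62 and 26.3 CPM at 2 h and 12.5 and 41.5 at 6 h, nearly all of it HBB, and the part of such RNA in the results was not tested. Fewer cells of a type and less RNA per cell cannot be told apart in these bulk libraries.

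Between 2 h and 6 h the transcriptome moved broadly, with more transcripts falling than rising. Of 20791 genes tested, 3273 passed edgeR's quasi-likelihood test at a Benjamini-Hochberg adjusted p under 0.05, which is 15.7% of them: 1107 were higher at 6 h (5.32%) and 2166 lower (10.4%). Many of the rising transcripts began near the floor of detection: 690 of the 1107 were under 1 CPM at 0 h on average, whereas 1920 of the 2166 falling genes were at 10 CPM or more. A transcript at under 0.1 CPM at 0 h was tested only because it was higher in other groups, often at 6 h, which favours rises. The 294 rises and 0 falls among 1013 such genes therefore support nothing. In 19 of the 1013 both 6 h libraries lay below both 2 h libraries. Among genes at 1 CPM or more at 0 h, 417 rose with a median log2 change of 1.02, 217 of them at least 2-fold, and 2139 fell with a median of -0.85, 686 of them at least 2-fold.

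The count depends on each of the 4 libraries. It was 1718 without 2 h replicate 1, 1119 without 2 h replicate 2, 2891 without 6 h replicate 1 and 1293 without 6 h replicate 2, and 219 rises and 634 falls passed in the full set and in each of these. Genes are called "held" below where they belong to these 853. The 6 h libraries differed in extent: replicate 2 was the lower of the pair for 1788 of the 2166 falling genes (82.55%), while the rising genes split evenly (49.6% higher in replicate 2). Replicate 2 was also the shallowest library at 6 h and had the larger share of fly counts, and the part of either in this difference was not tested. Scaling by fly counts shifted the median log2 change of all genes from 0.02 to -0.285 and turned the split into 578 higher and 3204 lower, so each change below is relative to the bulk of human RNA.

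**Figure D1:**
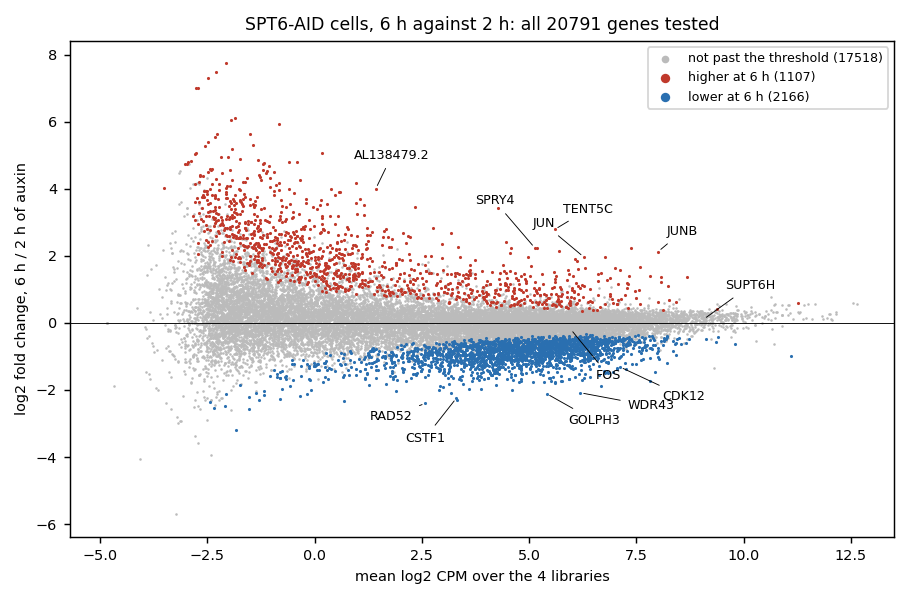
Log2 fold change of 6 h over 2 h of auxin (vertical axis) against the mean log2 CPM over the 4 libraries (horizontal axis) for each of the 20791 genes tested in SPT6-AID cells. Red points are the 1107 genes higher and blue points the 2166 genes lower past the threshold. The rises reach furthest among transcripts of low level, and the falls lie mainly among well expressed ones.

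The 12 steepest falls, taken where the log2 CPM averaged at least 1 over the 4 libraries, were in genes of varied function. RAD52, a recombination protein (chromosome 12, 912077 to 990053, GRCh38), was at 9.19 and 10.5 CPM at 2 h and 2.30 and 1.40 at 6 h. That is a log2 change of -2.40 ± 0.28 (SE, edgeR adjusted p = 0.00109), and at 0 h it stood at 9.93 and 10.8, so RAD52 RNA fell late. CSTF1, a subunit of the factor that stimulates cleavage of the pre-mRNA 3' end (chromosome 20, 56392371 to 56406369), fell from 16.0 and 16.3 CPM to 4.46 and 2.27 (-2.24 ± 0.26). Its level at 0 h was 27.7 in both libraries, so its drop was under way by 2 h. GOLPH3, a Golgi phosphoprotein (chromosome 5, 32124704 to 32174350), fell from 69.5 and 67.7 CPM to 19.7 and 12 (-2.11 ± 0.22). The arginine methyltransferase PRMT6 (-2.08), WDR43 of the small-subunit processome (-2.08), the centriole protein SASS6 (-1.97), the ubiquitin ligase adaptor KLHL9 (-1.98), RPP38 of RNase P (-1.91), CCDC71 (-2.28), BTBD8 (-2.04) and ZMYM1 (-2.0) were held as well. MTFR2 (-2.0) completed the 12 and was lost without 2 h replicate 2 (edgeR adjusted p = 0.055) or 6 h replicate 2 (0.0581).

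The largest rises at that level were mostly of RNAs close to silence at 2 h. TENT5C, a cytoplasmic poly(A) polymerase (chromosome 1, 117605934 to 117628372), was the exception in level: 12.4 and 12.1 CPM at 2 h and 63.5 and 106 at 6 h, a log2 change of 2.79 ± 0.33 (edgeR adjusted p = 0.00109). At 0 h it stood at 13.9 and 15.1 CPM, so its rise came wholly after 2 h. ADAMTSL4-AS2, an antisense RNA (chromosome 1, 150548562 to 150557724), went from 0.450 and 0.430 CPM to 4.22 and 4.05 (3.23 ± 0.28). LTBP2, a protein of the extracellular matrix, went from 1.05 and 2.29 CPM to 10.6 and 13.4 (2.82 ± 0.34). TRIM72, a muscle membrane-repair protein (3.69), ZNF512B (2.81), TGFBR3L (2.72), C2orf92 (2.82) and the unnamed loci AC144831.1 (3.52) and AC009831.1 (3.44) were held too. AL138479.2 (4.0) averaged 0.0552 CPM at 0 h and met the level limit only through its 6 h values of 4.46 and 5.97 CPM, so its rise is given as a description only. The same holds for ADAMTSL4-AS2, AC144831.1, AC009831.1, C2orf92 and CLDN22, which were under 1 CPM in both 2 h libraries. It also holds for LTBP2, which averaged 1.67 CPM at 2 h. CDKN2B, the CDK inhibitor p15, was at 2.78 and 3.79 CPM at 2 h and at 16.6 and 55.1 at 6 h (3.44 ± 0.83, edgeR adjusted p = 0.0193). The 6 h libraries of CDKN2B differ widely, and its call was lost without 2 h replicate 1, 2 h replicate 2 or 6 h replicate 2 (0.108, 0.0955 and 0.134). CLDN22 (2.75) was lost without 2 h replicate 2 (0.068).

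Many immediate early and feedback genes rose between 2 h and 6 h. Immediate early genes are switched on by growth factor and stress signals without new protein synthesis, and many encode AP-1, EGR and KLF transcription factors. The feedback genes encode phosphatases and adaptors that restrain the same ERK signal. Over 4 lists of such genes 64 were tested: 30 rose (46.9%, against 5.32% of all genes) and 2 fell, with a median log2 change of 0.67 against 0.02. In 44 of the 64 both 6 h libraries lay above both 2 h libraries, against 23.8% of all genes, and in 3 both lay below, against 28.4%. The rises numbered 21, 21, 24 and 26 without 2 h replicate 1, 2 h replicate 2, 6 h replicate 1 and 6 h replicate 2, and 18 under fly scaling (median 0.37). Of the 30 rises 18 were held. The same 64 genes had a median of -0.31 from 0 h to 2 h, a comparison that shares the 2 h libraries. From 0 h to 6 h the medians were 0.62 for the AP-1 list, 0.81 for the EGR list, 0.06 for the KLF list and -0.11 for the ERK feedback list. The last pair of medians lies near 0, but their genes moved both ways. Against 0 h, 8 of 22 KLF list genes were higher and 2 lower, and 4 and 3 of 18 ERK feedback genes. Over all 20791 genes 1821 were higher and 3409 lower.

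Among the 12 AP-1 genes 6 rose and 0 fell. JUNB (chromosome 19, 12791496 to 12793315), an AP-1 subunit, was at 101 and 90.3 CPM at 2 h and 426 and 409 CPM at 6 h. The groups lie far apart, a log2 change of 2.13 ± 0.16 (edgeR adjusted p = 0.000337), and at 0 h JUNB stood at 87.5 and 64.0 CPM. JUN (chromosome 1, 58780788 to 58784327), the founding AP-1 subunit, went from 30.6 and 32.4 CPM to 113 and 133 (1.97 ± 0.14, edgeR adjusted p = 0.000262). Its 2 h values lie below the 43.6 and 36.9 CPM of 0 h. FOSB (2.26 ± 0.41, from 3.34 and 3.74 to 14.8 and 19.1 CPM) and MAFF, a small MAF protein (1.45 ± 0.17), were held too, while MAFK (0.73) and ATF3 (1.07) rose without being held: MAFK was lost without 2 h replicate 1, 2 h replicate 2 or 6 h replicate 1 (edgeR adjusted p = 0.0973, 0.0759 and 0.0668) and ATF3 without 2 h replicate 1, 2 h replicate 2 or 6 h replicate 2 (0.137, 0.0547 and 0.155). FOS itself did not pass: it was at 66.2 and 66.1 CPM at 2 h and 67.2 and 49.5 at 6 h (-0.18 ± 0.20, edgeR adjusted p = 0.634), having stood at 7.66 and 6.95 CPM at 0 h. FOS RNA thus stood high by 2 h, whereas JUN and JUNB stood high at 6 h.

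Of 12 EGR, SRF and nuclear receptor genes 6 rose and 0 fell. EGR1, a zinc finger factor induced within minutes of a growth signal (chromosome 5, 138465490 to 138469315), was at 102 and 80.8 CPM at 2 h and 395 and 187 at 6 h (1.67 ± 0.37, edgeR adjusted p = 0.0125). Both 6 h values exceed both 2 h values, but they differ from each other, and the call was lost without 2 h replicate 2 (0.0907) or 6 h replicate 1 (0.0643). EGR3 went from 2.96 and 1.96 CPM to 12.7 and 19 (2.69 ± 0.42) and was held, as was CCN2, a matrix protein induced through SRF and YAP (0.99 ± 0.15, from 43.0 and 42.2 to 82.5 and 86.7 CPM). NR4A1 (1.04) was held but did not pass under fly scaling (edgeR adjusted p = 0.076).

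Of 22 KLF, IER and GADD45 genes 12 rose and 0 fell, with 5 rises under fly scaling. IER5 (chromosome 1, 181088712 to 181092899), a regulator of heat shock factor, was at 67.4 and 49.5 CPM at 2 h and 297 and 251 at 6 h (2.23 ± 0.21, edgeR adjusted p = 0.000635). At 0 h IER5 stood at 72.3 and 47.7 CPM, a range that holds both 2 h values. KLF9 (1.40 ± 0.16) and KLF10 (1.06 ± 0.14), Krüppel-like repressors, IER5L (1.97 ± 0.31) and GADD45B, a stress sensor (1.25 ± 0.15), were held. GADD45B rose in steps: 26.7 and 21.6 CPM at 0 h, 57.0 and 57.3 at 2 h, 117 and 155 at 6 h.

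The ERK feedback genes split: 6 of 18 rose, 2 fell. SPRY4, a Sprouty inhibitor of receptor tyrosine kinase signalling (chromosome 5, 142310427 to 142326455), was at 24.7 and 20 CPM at 0 h, at 13.4 and 11.2 at 2 h and at 67.9 and 47.9 at 6 h. From 2 h to 6 h that is 2.24 ± 0.19 on the log2 scale (edgeR adjusted p = 0.000483), with the 2 h values the lowest of the course. PHLDA1 had the same shape, with 192 and 174 CPM, then 98.4 and 89.4, then 197 and 235 (1.20 ± 0.16). The ERK phosphatase DUSP4 (1.89 ± 0.27) and SPRY2 (1.35 ± 0.18) were held, and DUSP5 (0.78), at 85.7 and 84.9 CPM at 0 h, 41.2 and 45.8 at 2 h and 76.8 and 72.5 at 6 h, was held but did not pass under fly scaling (edgeR adjusted p = 0.0822). DUSP6, the ERK phosphatase that fell before 2 h, from 464 and 469 to 119 and 131 CPM, stayed there at 148 and 132 (0.16 ± 0.17, edgeR adjusted p = 0.617). SPRED2, another inhibitor of the pathway, fell (-1.06 ± 0.19) and was held. SPRED1 also fell, and its call was lost without any of 2 h replicate 1, 2 h replicate 2 and 6 h replicate 2 (edgeR adjusted p = 0.177, 0.0719 and 0.19).

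**Figure D2:**
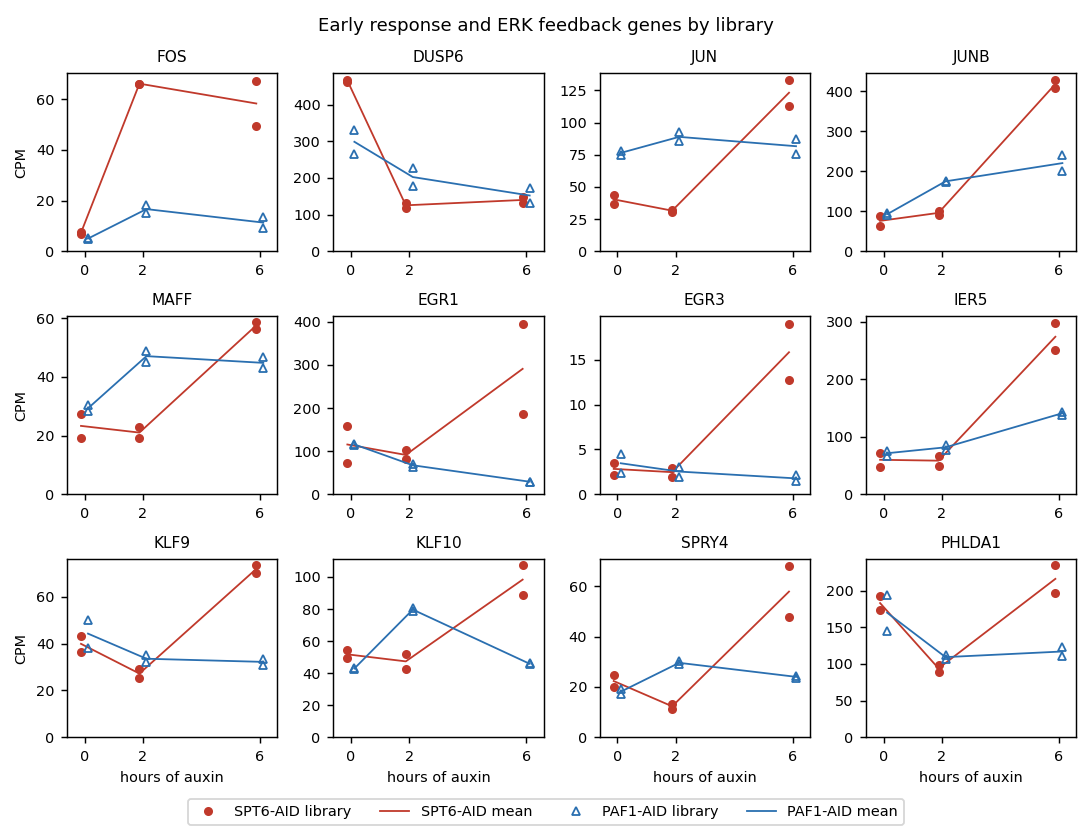
CPM (vertical axes, from 0) of 12 early response and feedback genes against hours of auxin (horizontal axes), with a point per library and lines through the means of 2 libraries, in red for SPT6-AID and in blue for PAF1-AID cells. FOS and DUSP6 changed by 2 h in SPT6-AID cells and did not pass the threshold from 2 h to 6 h, although DUSP6 was slightly higher at 6 h in both libraries. The other 10 genes passed and were higher at 6 h than at 2 h in both SPT6-AID libraries.

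Promoters of immediate early genes are known for CArG and TATA boxes, and some of these genes have one in the window searched while others have none. They are printed 5' to 3' on the gene's strand from the RefSeq table on GRCh38.p14, 250 bases before to 50 after the annotated start, with matches in capitals. In EGR1 the capitals mark 2 CArG boxes, the site bound by SRF, at -105 and -83, and in JUNB and FOSB a TATA box (TATAAA) at -31 and -30. JUN, which also rose, and CSTF1, which fell, are shown as promoters with no match to either, which says only that these letters are not in the window.

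EGR1, chr5:138465229-138465528, plus strand: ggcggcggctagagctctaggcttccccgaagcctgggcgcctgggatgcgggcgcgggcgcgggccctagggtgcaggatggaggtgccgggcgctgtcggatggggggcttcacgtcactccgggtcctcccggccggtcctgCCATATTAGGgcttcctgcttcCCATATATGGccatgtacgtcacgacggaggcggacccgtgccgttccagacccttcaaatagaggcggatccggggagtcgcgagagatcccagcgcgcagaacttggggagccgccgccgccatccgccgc
JUNB, chr19:12791236-12791535, plus strand: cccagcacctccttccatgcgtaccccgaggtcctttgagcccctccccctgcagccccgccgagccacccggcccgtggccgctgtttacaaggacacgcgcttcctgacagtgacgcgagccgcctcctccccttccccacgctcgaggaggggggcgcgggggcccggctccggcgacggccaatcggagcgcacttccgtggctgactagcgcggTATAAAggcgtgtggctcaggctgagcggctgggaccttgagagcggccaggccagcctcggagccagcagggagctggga
FOSB, chr19:45467746-45468045, plus strand: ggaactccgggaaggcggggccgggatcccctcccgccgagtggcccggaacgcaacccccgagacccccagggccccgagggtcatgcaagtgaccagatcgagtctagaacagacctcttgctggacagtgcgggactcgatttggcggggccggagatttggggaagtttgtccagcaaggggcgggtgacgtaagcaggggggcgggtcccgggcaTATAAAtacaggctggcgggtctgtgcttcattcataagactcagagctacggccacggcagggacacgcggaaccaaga
JUN, chr1:58783998-58784297, minus strand: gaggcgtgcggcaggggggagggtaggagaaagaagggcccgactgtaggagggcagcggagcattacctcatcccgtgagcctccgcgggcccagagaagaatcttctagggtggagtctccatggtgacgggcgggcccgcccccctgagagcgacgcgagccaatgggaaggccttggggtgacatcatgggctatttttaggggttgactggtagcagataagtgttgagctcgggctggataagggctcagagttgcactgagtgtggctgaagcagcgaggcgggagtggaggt
CSTF1, chr20:56392129-56392428, plus strand: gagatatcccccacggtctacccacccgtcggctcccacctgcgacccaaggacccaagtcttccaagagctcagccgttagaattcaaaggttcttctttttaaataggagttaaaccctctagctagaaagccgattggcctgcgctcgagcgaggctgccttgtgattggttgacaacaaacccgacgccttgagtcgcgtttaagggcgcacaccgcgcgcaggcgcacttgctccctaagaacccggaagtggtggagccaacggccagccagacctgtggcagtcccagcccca

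A promoter was matched by symbol for 11697 of the genes tested. TATAAA, read on the gene's strand, was found in 7.71% of all 27305 promoters in the table and in 4.33% of those of tested genes. Among genes higher at 6 h it was in 52 of 596 promoters (8.73%), and among genes lower at 6 h in 37 of 1692 (2.19%). Of the 48 matched promoters of the early response lists 8 held it (16.7%), and 4 of the 21 whose genes rose: JUNB, FOSB, CCN2 and GADD45B. SPRY4 and IER5 rose with no match to either motif, and FOS did not pass although its window holds TATAAA. A CArG box on either strand was in 1.29% of all promoters and in 1 of those 21, that of EGR1. Median GC content was 61.8% for higher and 65.3% for lower genes. Level differed as well: 690 of all 1107 higher genes were under 1 CPM at 0 h. Such genes can pass the filter on low counts through their 6 h values. Of the 2166 lower genes 1920 were at 10 CPM or more at 0 h. The part of GC content, of level and of the filter in the TATAAA shares was not tested.

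SNORD3A and CYP1A1 stood higher at 2 h than at 0 h, and their lists gave few calls after 2 h. The U3 small nucleolar RNA genes, which guide cleavage of the ribosomal RNA precursor, did not pass in any of the 4 tested cases. SNORD3A was at 1.37 and 1.78 CPM at 0 h, 24.5 and 28.0 at 2 h and 28.6 and 37.6 at 6 h (0.33 ± 0.23, edgeR adjusted p = 0.407), and reads of the near-identical SNORD3 genes may be shared among them. Of 11 aryl hydrocarbon receptor genes 2 rose (18.2%, against 5.32% of all genes) and 1 fell, with a median of 0.41 and none held. CYP1A1, the receptor's classic target, was at 42.0 and 27.1 CPM at 2 h and 78.4 and 88.1 at 6 h (1.27 ± 0.26, edgeR adjusted p = 0.0101). It had stood at 2.14 and 1.85 CPM at 0 h, and the later step was lost without 2 h replicate 2 (0.0802) or 6 h replicate 2 (0.059). TIPARP, another target, rose by 0.87 on the log2 scale and was lost without 2 h replicate 2 (edgeR adjusted p = 0.139) or 6 h replicate 1 (0.0893).

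Several lists of genes that make and process mRNA held a larger share of falls than the 10.4% of all genes, and no test of a list was made. Falls were more frequent among well expressed genes. Protein-coding genes at 10 to 100 CPM at 0 h fell in 21.3% of cases, and those at 100 CPM or more in 17.2%. The part of level in the share of any list here or below was not tested. Of 30 cleavage and termination factors 12 fell (40%) and 1 rose, with a median of -0.30 against 0.02 for all genes, and 10 of the falls were held. Beside CSTF1, CSTF2T, a variant of another subunit of the same factor (-1.36 ± 0.16), FIP1L1, which tethers poly(A) polymerase to the cleavage complex (-1.16 ± 0.15), SCAF8, an anti-termination factor on the polymerase tail (-1.22 ± 0.13), and WDR82 (-1.43 ± 0.19), a subunit of phosphatase and methyltransferase complexes, fell. CLP1 rose (0.98), and was lost without 2 h replicate 1 (edgeR adjusted p = 0.0782) or 6 h replicate 2 (0.0725). The lowest number of falls left in the list was 10, without 2 h replicate 2.

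Lists of elongation factors were shorter. CDK12, the kinase that phosphorylates the polymerase tail during elongation (chromosome 17, 39461511 to 39564907), was at 189 and 205 CPM at 2 h and 92.2 and 66.5 at 6 h (-1.31 ± 0.16, edgeR adjusted p = 0.00111). It had been at 204 and 221 CPM at 0 h, so CDK12 RNA, too, fell late. Of 11 P-TEFb, 7SK and CDK12/13 genes 4 fell (36.4%) and 0 rose, and CDK12 alone was held, the count being 1 without 2 h replicate 2 or 6 h replicate 2. IWS1, the partner of SPT6 (chromosome 2, 127436207 to 127526886), fell from 64.5 and 82.5 CPM to 26.1 and 26.8 (-1.48 ± 0.19), and CHD1, a nucleosome remodeller of transcribed genes, fell by 0.99 on the log2 scale. They were the held pair among 4 of 19 SPT6 partners and histone chaperones that fell (21.1%), of which 0 rose. That share is near the 21.3% of protein-coding genes at 10 to 100 CPM at 0 h. Of 15 NELF and super elongation complex genes 5 fell (33.3%) and 1 rose: MLLT1 (-0.92), MLLT3 (-0.93) and the pausing factor subunit NELFA (-1.23) were held, and EAF1 rose (0.76), but not under fly scaling (edgeR adjusted p = 0.0566).

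LEO1, a subunit of the PAF1 complex (chromosome 15, 51938025 to 51971806), fell from 54.5 and 50.7 CPM to 28.3 and 21.1 (-1.09 ± 0.16, edgeR adjusted p = 0.00211). Of the 6 genes of the complex tested 3 fell (50%) and 1 rose: CDC73 (-0.82) and RTF1 (-0.62) fell and CTR9 rose (0.56), but none of these was held: CDC73 was lost without 2 h replicate 1 or 6 h replicate 2 (0.0784 and 0.0755 by edgeR), and RTF1 and CTR9 also without 2 h replicate 2 (0.0856 and 0.0815). PAF1 itself was at 64.2 and 71.6 CPM at 2 h and 52.3 and 61.5 at 6 h, a value that did not pass (-0.26 ± 0.12, edgeR adjusted p = 0.194), though it passed under fly scaling (-0.57, 0.0183).

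Of 82 genes of polymerase II, the general factors, Mediator and Integrator 26 fell (31.7%) and 1 rose (median -0.31), with 9 falls held and 10 left without 2 h replicate 2. TAF5, a TFIID subunit, fell from 14.4 and 11.3 CPM to 4.09 and 4.12 (-1.64 ± 0.23), and MED8 by 1.29 on the log2 scale. MED26, the Mediator subunit that hands the polymerase to elongation factors, went the other way, from 6.79 and 7.56 CPM to 15.9 and 15.6 (1.13 ± 0.17). Of 51 splicing factor genes 18 fell (35.3%) and 2 rose (median -0.36), with 7 falls held and 9 left without 2 h replicate 2. RBM39 fell from 199.6 and 217 CPM to 95 and 87.8 (-1.19 ± 0.11), and SON, a scaffold of nuclear speckles, by 0.96 on the log2 scale. The 2 that rose were CLK1 and CLK3, kinases that phosphorylate SR splicing factors: CLK1 went from 16.0 and 13.4 CPM to 31.8 and 33.4 (1.15 ± 0.16), back to the 30.6 and 26.5 CPM of 0 h, while CLK3 (0.61) did not pass under fly scaling (edgeR adjusted p = 0.233).

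Nonsense-mediated decay removes transcripts with early stop codons and many regulatory isoforms. Of its 16 factors 7 fell (43.8%) and 0 rose (median -0.56), 3 without 2 h replicate 2 and 2 without 6 h replicate 2. CASC3, a core of the exon junction complex, fell from 97.7 and 110 CPM to 56.2 and 46.3 (-1.02 ± 0.13), and SMG9 fell by 1.51 on the log2 scale, which did not pass in the 6 SPT6-AID libraries alone (edgeR adjusted p = 0.055). Among 18 mRNA export genes 3 fell (16.7%) and 1 rose (5.56%), shares near those of all genes. The riser was NXF1, the main export receptor (chromosome 11, 62792123 to 62806302), from 96.9 and 97.6 CPM to 207 and 231 (1.17 ± 0.12, edgeR adjusted p = 0.000875), against 84.5 and 87.6 CPM at 0 h.

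**Figure D3:**
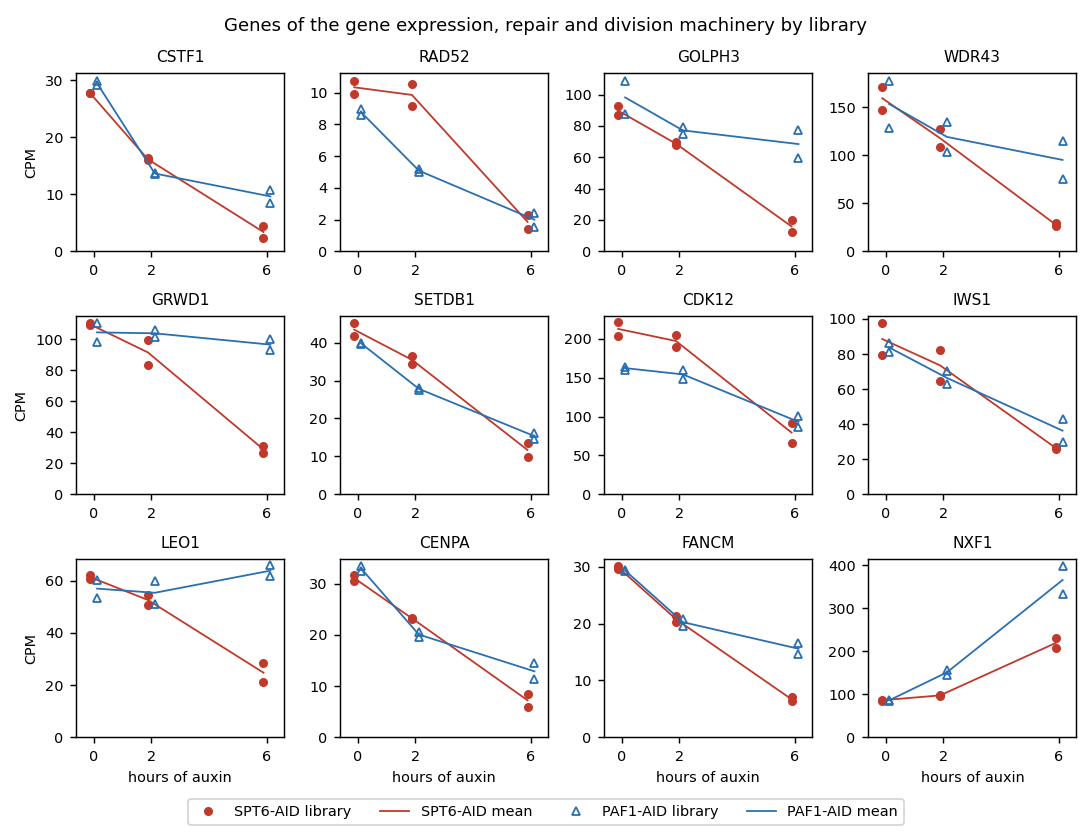
CPM (vertical axes, from 0) of 12 genes of transcription, chromatin, repair, division and export against hours of auxin (horizontal axes), with a point per library and lines through the means of 2 libraries, in red for SPT6-AID and in blue for PAF1-AID cells. In SPT6-AID cells 11 of these genes were lower at 6 h than at 2 h in both libraries, and NXF1 was higher.

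Enzymes that methylate histones and arginines were among the lists with the most falls. Of 58 tested 29 fell (50%, against 10.4% of all genes) and 0 rose, with a median of -0.46 against 0.02 for all genes. The falls numbered 18, 18, 30 and 15 without 2 h replicate 1, 2 h replicate 2, 6 h replicate 1 and 6 h replicate 2, and 13 were held. SETDB1, which deposits H3K9 trimethylation (chromosome 1, 150926263 to 150964744), went from 36.5 and 34.5 CPM to 13.5 and 9.85 (-1.60 ± 0.16, edgeR adjusted p = 0.000796). The heterochromatin enzyme SUV39H1 (-1.3 ± 0.18) and PRMT6 fell with it. Of 11 genes of H2B ubiquitylation 3 fell (27.3%), all held, among them WAC, an adaptor of the H2B ligase (-1.2 ± 0.19), and 0 rose.

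Many genes of mitosis and of DNA repair fell, and 0 in these lists rose. Of 46 mitosis and kinetochore genes 22 fell (47.8%, against 10.4% of all genes, median -0.60), with 20, 9, 15 and 15 left without 2 h replicate 1, 2 h replicate 2, 6 h replicate 1 and 6 h replicate 2, and 9 held. CENPA, the centromeric histone H3 variant (chromosome 2, 26764289 to 26801067), fell from 23.4 and 23.1 CPM to 8.52 and 5.94 (-1.68 ± 0.19, edgeR adjusted p = 0.00105). The mitotic kinases AURKA (-1.51 ± 0.22) and BUB1B (-1.10 ± 0.15), the kinesin KIF20B (-1.39 ± 0.17) and cyclin F, CCNF (-1.26 ± 0.17), were held. Of 39 recombination, Fanconi and checkpoint genes 18 fell (46.2%, median -0.55), with 13, 7, 12 and 10 left in the same order and 7 held. FANCM, a helicase at stalled forks (chromosome 14, 45135940 to 45200890), fell from 20.3 and 21.3 CPM to 7.06 and 6.32 (-1.63 ± 0.14, edgeR adjusted p = 0.000483). RIF1 (-1.57 ± 0.20) and ATRIP (-1.45 ± 0.20) fell too. In PAF1-AID cells the medians from 2 h to 6 h were -0.30 for the mitosis list and -0.34 for the repair list. The median of all genes there was 0.01, and 1 mitosis gene and 2 repair genes fell past the threshold. Of 43 replication genes 7 fell (16.3%) and 0 rose (median -0.14), a share near that of all genes, with POLD3, a subunit of polymerase delta (-1.68 ± 0.16), and GINS1 (-1.38 ± 0.18) held.

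Ribosome biogenesis genes gave many falls, and the genes of cytosolic ribosomal proteins gave few calls. Of 62 biogenesis genes 23 fell (37.1%) and 0 rose (median -0.38), with 18, 10, 18 and 12 left without 2 h replicate 1, 2 h replicate 2, 6 h replicate 1 and 6 h replicate 2, and 10 held. GRWD1, a chaperone of ribosomal protein uL3 (chromosome 19, 48445773 to 48457022), fell from 83.7 and 99.5 CPM to 31.1 and 26.8 (-1.66 ± 0.13, edgeR adjusted p = 0.000358), and POLR1B, a core subunit of polymerase I, by 1.26 on the log2 scale. Of 85 cytosolic ribosomal protein genes 0 rose and 1 fell, and their median of 0.27 becomes -0.07 under fly scaling, 0.04 without 2 h replicate 1 and -0.11 without 6 h replicate 2. Of 75 mitochondrial ribosomal protein genes 11 fell (14.7%, against 10.4% of all genes) and 0 rose. Their falls numbered 6, 2, 5 and 5 with the libraries left out in the same order, and 32 under fly scaling.

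Other abundant families gave few calls. The 13 mitochondrial genome messages had 0 calls, although 11 of them had both 6 h libraries above both 2 h libraries, with a median of 0.55, and 0.24 once scaled by fly counts. MT-CO1 was at 4676 and 4953 CPM at 2 h and 7011 and 7387 at 6 h (0.58 ± 0.19, edgeR adjusted p = 0.0631). The share of human counts in these messages was higher in both 6 h libraries, and its part in the lower values of other genes was not tested. The 47 replication-dependent histone genes also had 0 calls, with a median of 0.46 (0.15 under fly scaling), and poly(A) selection captures few of their transcripts. Nuclear oxidative phosphorylation genes had 1 rise and 1 fall of 74, proteasome genes 1 and 2 of 47, and tRNA synthetase genes 0 of 17, though 4 of the last fell under fly scaling.

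**Figure D4:**
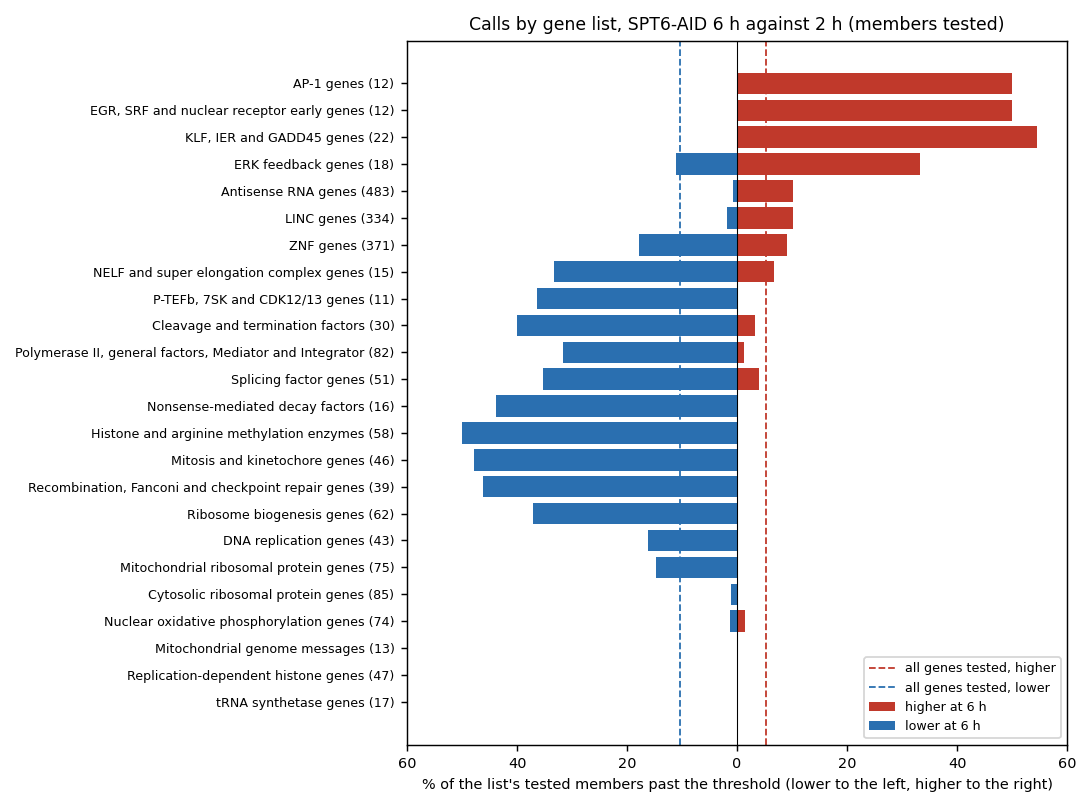
Share of the tested members (in brackets) of each of the lists drawn that were higher (red bars, right) or lower (blue bars, left) at 6 h than at 2 h past the threshold, in percent. Dashed lines give the shares over all genes tested, 5.32% higher and 10.4% lower. Of the lists drawn, AP-1, EGR and KLF reach furthest to the right, and methylation enzymes, mitosis and repair furthest to the left; the PAF1 complex, 3 of 6 lower, is not drawn.

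CDK inhibitors were among the rises, while apoptosis regulators, like all genes tested, fell more often than they rose. Of 21 G1 cyclins and CDK inhibitors 5 rose (23.8%, against 5.32% of all genes) and 1 fell (4.76%, against 10.4%). CDKN1A, the inhibitor p21, was at 34.8 and 33.7 CPM at 2 h and 93.7 and 117 at 6 h (1.62 ± 0.22, edgeR adjusted p = 0.00173), and CDKN1C, p57, went from 9.21 and 4.93 CPM to 38.6 and 36.0 (2.41 ± 0.34). Of 26 apoptosis regulators 3 rose (11.5%, against 5.32% of all genes) and 8 fell (30.8%, against 10.4%). The risers were the BH3-only genes PMAIP1 (1.64 ± 0.21) and BCL2L11 (1.01 ± 0.18), whose products promote apoptosis and whose calls were held, and MCL1 (0.72), whose product promotes survival. MCL1 was lost without 2 h replicate 1, 2 h replicate 2 or 6 h replicate 1 (edgeR adjusted p = 0.0973, 0.0964 and 0.0704). The falls were of both kinds, among them the caspase CASP8 (-0.71) and the survival genes BCL2L1 (-0.58) and XIAP (-0.66). None of the 8 was held, and they numbered 3, 1, 7 and 2 with the 4 libraries left out in the order used above. Of 26 p53 pathway genes 6 rose (23.1%, against 5.32% of all genes) and 4 fell (15.4%, against 10.4%). Of these calls, 3 rises were held and none of the falls. The fall of MDM2, the p53 ligase (-1.11), was lost without 2 h replicate 1, 2 h replicate 2 or 6 h replicate 2 (0.102, 0.0625 and 0.0981 by edgeR).

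Stress programmes were mixed. Of 21 heat shock genes 4 rose and 1 fell, none of the calls was held, and under fly scaling 0 rose and 4 fell. The near-identical HSPA1A (1.02) and HSPA1B (1.38), whose reads may be shared, were lost without 2 h replicate 2 (edgeR adjusted p = 0.124 and 0.145) or 6 h replicate 2 (0.0981 and 0.113). ATF4, the integrated stress factor, fell from 190 and 281 CPM to 87.7 and 114 (-1.23 ± 0.24), lost without 2 h replicate 2 (edgeR adjusted p = 0.0735) or 6 h replicate 1 (0.0512), and TRIB3, its target, fell by 0.88 on the log2 scale. They were the 2 falls (8.33%) among 24 ATF4 and unfolded protein genes, of which 1 rose (4.17%). NF-kB genes had 1 rise and 1 fall of 23 (4.35% each). Interferon genes had 2 rises (8.0%) and 1 fall (4.0%) of 25.

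By class, rises were most frequent among short genes with few exons, and falls among genes of 50 to 400 kb. Among 13663 protein-coding genes 680 rose and 1991 fell. Genes under 5 kb rose in 8.24% and fell in 5.74% of 1238 cases, whereas genes of 100 to 400 kb rose in 2.98% and fell in 20.2% of 2314. At 400 kb or more the falls were again fewer, 8.05% of 261. Protein-coding genes with 1 exon rose in 11.7% and those with 2 or 3 in 12.8%, against 4.09% of those with 4 or more, and the last fell in 15.3%. Level may differ between these classes, and its part was not tested. Of the protein-coding rises, 142 were of genes under 0.1 CPM at 0 h and 183 of genes at 0.1 to 1 CPM. Such genes can pass the filter on low counts through their 6 h values, and the shares by length and exons include them. Among all genes 27 of 2456 at 100 CPM or more at 0 h rose and 408 fell. At 0.1 to 1 CPM 396 rose and 27 fell of 5114, with the same limit from the filter. The length is the authors' and equals the GENCODE 29 span for 56.8% of tested genes.

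**Figure D5:**
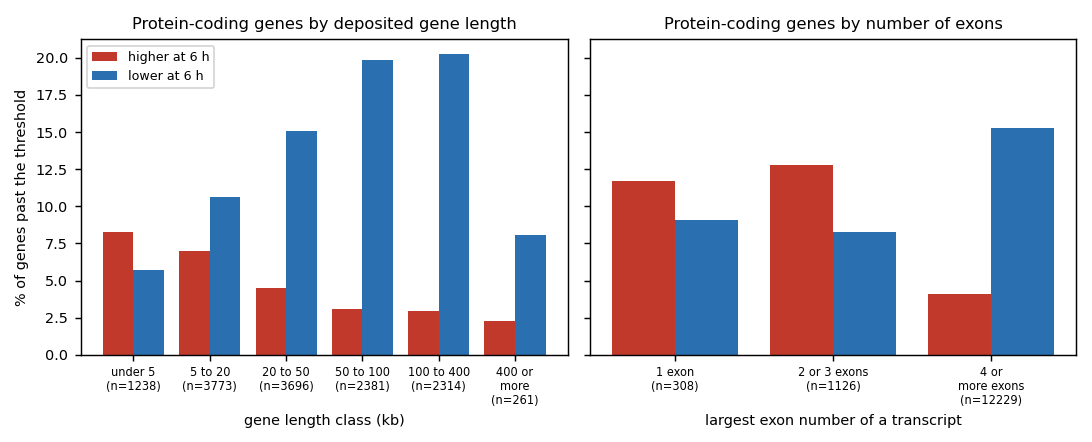
Percent of protein-coding genes higher (red) or lower (blue) at 6 h than at 2 h past the threshold (vertical axis), by deposited gene length class in kb (left) and by the largest number of exons of a GENCODE 29 transcript (right), with the number of genes in each class. The share that rose falls with length, and the share that fell is highest, 20.2%, from 100 to 400 kb. The rises include genes under 1 CPM at 0 h, which can pass the filter on low counts through their 6 h values.

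Of 2902 long non-coding RNAs tested 302 rose and 47 fell, but 256 of those that rose were under 1 CPM at 0 h, where a gene can pass the filter on low counts through its 6 h values. At 0.1 to 1 CPM at 0 h they rose in 9.33% of cases (median 0.43) and protein-coding genes in 11.2% (median 0.48). At 1 to 10 CPM 42 rose and 28 fell (median 0.06), and at 10 to 100 CPM 4 rose and 13 fell (median -0.17), so no lean of the class apart from its level is shown. Antisense RNA genes rose in 49 of 483 cases and fell in 4 (median 0.43, or 0.12 under fly scaling, 17 rises without 2 h replicate 2), and LINC genes in 34 and 6 of 334 (median 0.27, or -0.02 under fly scaling, 7 rises without 2 h replicate 2). Of these genes 285 and 230 were under 1 CPM at 0 h. The counting strand is not given, so reads of an antisense gene and its partner cannot be told apart. ZNF genes, which encode KRAB and other zinc finger repressors, went both ways: 34 of 371 rose (9.16%) and 66 fell (17.8%), with 10 and 22 held, and their median was -0.19 (-0.49 from 0 h to 2 h).

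The same interval in PAF1-AID cells shares no library with this one and gave far fewer calls. There 182 of 20791 genes passed (0.875%), 60 higher (0.289%) and 122 lower (0.587%). Of these, 40 rises and 104 falls were also calls in SPT6-AID cells. That is 66.7% and 85.2% of the PAF1-AID calls, where 5.32% and 10.4% of all genes were SPT6-AID calls. It is 3.61% and 4.80% of the SPT6-AID calls, where 0.289% and 0.587% of all genes were PAF1-AID calls. Both tests took each gene's spread from the same fit of 12 libraries, so the overlap is not one of independent tests. Only 1 gene was called in opposite directions. That gene is KLF10, which rose in SPT6-AID cells and fell from 80.4 and 78.9 to 46.1 and 45.6 CPM in PAF1-AID cells (-0.80, edgeR adjusted p = 0.0386). NXF1 rose in both, by 1.17 and 1.28, and RBM39 fell in both, by -1.19 and -0.79. IRF2, an interferon regulatory factor, fell from 19.8 and 22.0 to 7.82 and 6.18 CPM in SPT6-AID cells (-1.57) and from 21.6 and 15.9 to 4.48 and 4.98 in PAF1-AID cells (-1.99).

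The difference between the lines was tested as an interaction, and 88 genes passed (0.423%), 20 with the larger rise in SPT6-AID cells (0.0962%) and 68 with the larger fall (0.327%). Of the 64 early response genes 8 were among the 20: JUN, JUNB, MAFF, EGR1, KLF9, KLF10, IER3 and SPRY4. In PAF1-AID cells JUN was at 85.4 and 92.3 CPM at 2 h and 87.5 and 75.6 at 6 h, a difference between the lines of 2.09 (edgeR adjusted p = 0.0109). SPRY4 was at 28.9 and 30.2 CPM and then 24.3 and 23.7 there (difference 2.54, edgeR adjusted p = 0.0109), and EGR1 at 71.3 and 63.1 and then 29.5 and 28.5 (2.89, 0.0492). On the other side stood LEO1 (difference -1.29), GRWD1 (-1.56), POLR1B (-1.3), FANCM (-1.25), CCNF (-1.60), CSTF2T (-1.48) and FIP1L1 (-1.17): GRWD1 was at 102 and 106 and then 93.1 and 100.2 CPM in PAF1-AID cells. The 88 depend on scaling and on single libraries: the count was 0 under fly scaling and 10 with total counts, but 634 with no filter on low counts and 692 with DESeq2. It was also 0 without SPT6-AID 2 h replicate 2 or without any of the PAF1-AID libraries at 2 h and 6 h, 5 without SPT6-AID 2 h replicate 1 or 6 h replicate 2, 550 without SPT6-AID 6 h replicate 1, and 10 to 17 without a library at 0 h. A gene outside the 88 is not shown to change alike in the 2 lines.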

How the data were processed

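Poly(A) RNA from 12 libraries was sequenced: SPT6-AID (replicates 1 and 2) and PAF1-AID (replicates 3 and 4) cells at 0 h, 2 h and 6 h of auxin. The deposited table holds raw counts per gene for human and fly, made by the authors with cutadapt 1.14, STAR 2.7.5 and featureCounts 2.0.0 on GRCh38 and BDGP6, per the submitters' processing notes. The annotation release and counting strand are not given in the sources used here. The 60666 human rows were reduced with edgeR's filterByExpr to 20791, scaled by TMM and fitted with edgeR 4.0.16 (R 4.3.3, quasi-likelihood test, all 12 libraries, 1 mean per group, 6 residual degrees of freedom, prior count 0.125). Benjamini-Hochberg adjustment took in every gene tested, and the threshold was 0.05. The difference between lines was an interaction contrast. CPM, log2 fold changes and their SE are from that fit. Gene coordinates and exons are from GENCODE 29, matched for 98.7% of tested genes, and promoters from RefSeq.

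Named genes are the 12 largest changes each way where log2 CPM averaged at least 1, with groups that do not overlap, up to 6 genes per list by smallest p, and the 6 largest differences between the lines each way. AURKA, CLK3, CLP1, DUSP6, FOS, MDM2 and SPRED1 lie outside this rule and were chosen after their values were seen. The 53 lists and the comparison itself were chosen with earlier results of these data known. Alternatives were other scalings (fly counts included), filters, sets of libraries, a replicate block, DESeq2 1.42.0 and limma-voom (limma 3.58.1), and leaving out each library. Leave-outs with the genes tested kept as in the full set were added after the data were seen. The fit was tested on simulated data.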

Additional observations from a re-analysis of the deposited data

Results flagged for a closer look

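The change from 2 h to 6 h differed between the SPT6-AID and PAF1-AID lines for 88 genes by edgeR's interaction test. The largest differences with the higher value in SPT6-AID cells were EGR1 (log2 difference 2.89), the unnamed locus AC009831.1 (2.57), SPRY4 (2.54), JUN (2.09), KLF10 (1.85) and C11orf95 (1.83). AC009831.1 was under 1 CPM outside the SPT6-AID 6 h libraries and met the level limit only through them, so its difference is a description only. C11orf95 was at 8.57 and 8.06 CPM at 2 h and 35.8 and 42.9 at 6 h in SPT6-AID cells, and at 21.0 and 19.8 and then 27.9 and 26.5 in PAF1-AID cells. The largest with the lower value were URB2, a ribosome biogenesis factor (-2.03), AL512310.7 (-2.01), GOLPH3 (-1.94), KIAA1586 (-1.93), the peroxisomal import protein PEX14 (-1.64) and MRTFB, an SRF coactivator (-1.62). URB2 was at 37.8 and 48.6 CPM and then 15.5 and 10.2 in SPT6-AID cells, against 42.5 and 47.4 and then 52.3 and 57.2 in PAF1-AID cells. Each of these 12 kept its sign with any 1 of the 8 libraries at 2 h and 6 h left out, and each passed the threshold in 1 to 3 of those 8 fits.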

How the results depend on the processing

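For SPT6-AID 6 h against 2 h, 3273 genes passed. The count was 1940 (775 higher, 1165 lower) with the 6 SPT6-AID libraries alone and 1043 (559 and 484) with the 4 compared libraries alone. Leaving out 1 library gave 1119 to 3183, and with the tested genes kept as in the full set, an alternative chosen after seeing the data, 1119 to 2884 (1717 and 1296 without 2 h replicate 1 and 6 h replicate 2). The other scalings, filters and tools gave 2302 to 4003, and no call that was kept changed sign in any alternative run. With a replicate block the count was 8466, and for the difference between lines 3046. The replicate numbers are 2 per line, and the replicate differences of SPT6-AID 2 h and 6 h correlated at 0.80 over 14896 genes, so that same-numbered libraries deviated together. The labels do not say what a number shares, and the blocked fit is not used as evidence of pairing. The 88 genes of the difference became 10 with total counts, 0 with fly counts, 634 with no filter, 692 with DESeq2 and 0 with the 8 libraries at 2 h and 6 h alone. Leaving out 1 library gave 0 to 550, or 0 to 554 with the tested genes kept (5 without SPT6-AID 2 h replicate 1 or 6 h replicate 2). The cause was not tested. Of 146 named genes, 130 were called and 95 held without any 1 of the 4 libraries. With 2 libraries a group, a change that missed the threshold is not shown to be absent.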

Other observations

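Several regulators outside the groups described above also moved between 2 h and 6 h in SPT6-AID cells. GRHL2, a transcription factor of epithelial identity, fell from 81.8 and 68.6 CPM to 26.7 and 17.9 (log2 change -1.75 ± 0.22 SE, edgeR adjusted p = 0.00131), and in PAF1-AID cells from 45 and 51.2 to 16.9 and 22.7 CPM (-1.28). LATS1, a kinase that restrains YAP, fell from 44.7 and 39.2 CPM to 18.7 and 10.2 (-1.53 ± 0.23). RNF43, a WNT receptor ligase, fell from 24.0 and 31.6 CPM to 11.9 and 9.6 (-1.37 ± 0.18), and was 1 of 3 WNT targets of 20 that fell, while 1 rose. NRARP, a feedback inhibitor of NOTCH, rose from 39.8 and 31.7 CPM to 96.5 and 93.7 (1.41 ± 0.17). Each of these 4 calls held without any 1 of the 4 libraries.

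CD14, a blood cell marker, was at 0.321 and 0.337 CPM at 2 h and 1.3 and 0.873 at 6 h, and PECAM1, an endothelial marker, at 0 and 0.028 and then 0.456 and 1.22. Both passed the threshold and neither held with each library left out.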
